A study of Rattus norvegicus with 21 samples.

Results

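Piperonyl butoxide (PBO) at 1000 mg/kg by mouth for 7 days was compared with 0 mg/kg in the livers of male Sprague-Dawley rats, an outbred laboratory strain. The comparison takes the 3 arrays whose titles give 1000 mg/kg and the 3 whose titles give 0 mg/kg in the PBO study, 6 of the 21 arrays in the series, with 1 array per animal. Controls received 0.5% methyl cellulose by mouth, and the labels give neither the vehicle of the dosed animals nor any age. Livers were kept cold in RNAlater before RNA isolation on RNeasy columns, and biotin-labelled copies were hybridised to the arrays. Groups of 3 rats at 500 and 1500 mg/kg entered the same statistical model and are set beside the 1000 mg/kg group at the end. A second study of the series, of dammar resin in another strain, was not used here. Of 31042 probe sets that are no array control, 18625 passed a filter on low signal and were tested, and they named 10670 genes with 1 probe set each.

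PBO is an insecticide synergist: it blocks cytochrome P450 enzymes, with which insects and mammals clear foreign compounds. In liver, such compounds are sensed by nuclear receptors and transcription factors, among them the aryl hydrocarbon receptor (AhR), the constitutive androstane receptor (CAR), the pregnane X receptor (PXR) and the stress sensor NRF2. Each raises its own set of genes for oxidation (phase 1), conjugation (phase 2) and export, and the same liver cells also run cholesterol, fatty acid, glucose and amino acid metabolism in zones between the portal and the central vein.

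A signal is the authors' MAS5 intensity of a probe set on a linear scale. Differences were computed as log2(signal + 16), which understates changes of genes with low signal, and each is given with the standard error (SE) of a limma fit, with n = 3 animals per group. That SE pools the spread over all 12 arrays of the PBO study. A gene is called, and said to have risen or fallen, where limma's Benjamini-Hochberg adjusted p over all 18625 probe sets was under 0.05. Fold values are ratios of the group means of the signals. None is given where a group mean lay under the medians of all 6 arrays, since such low signals fix no ratio. The control means of Gstm3 and Ggt1 lay within the range of those medians, so their fold values are uncertain. Signals of replicates 1, 2 and 3 are always given in that order, and the replicate numbers pair no animals across groups. Probe sets of Akr1c14, Cyp51, Eci1, Hbb, Jun and Mup5 bear the suffix of designs shared with related sequences, so close relatives cannot be told apart there. Each of the 6 arrays was also left out in turn, and calls that did not survive this are named in each paragraph. Other probe sets of a gene are given for some genes only. Another probe set had the same sign but was not called for Abcb1a, Acsl5, Akr1d1, Dusp6, Eci1, Elovl5 and Hspb8. The same held for Hyou1, Idi1, Mup5, Obp3, Sc5d and Slc1a3. Adjusted p for these probe sets ran from 0.0544 to 0.794. Further probe sets of Gulo, Me1, Mup5, Papss2, Slc22a8, Slc25a13 and Slco1a4 were called in the same direction.

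The arrays of both groups carried a common scale, with a trimmed mean signal of 500.3 on each. Median signals were 107, 109 and 114 in the controls and 99.4, 99.3 and 106 at 1000 mg/kg, so that every dosed array lay below every control. Ratios of 3′ to 5′ beta-actin signal, a sign of RNA integrity and labelling, were 2.85, 3.03 and 3.16 in the controls and 2.38, 2.50 and 2.44 at 1000 mg/kg, again without overlap. The same ratios for GAPDH overlapped, with 1.131, 1.171 and 1.160 in the controls and 1.108, 1.114 and 1.134 at 1000 mg/kg. The part of the gaps in median signal and beta-actin ratio in the results was not tested. Over all 18625 probe sets the median difference was -0.05, and scaling each array to a common median moved it to 0.06.

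At 1000 mg/kg 351 probe sets rose and 230 fell, together 581 of 18625 (3.12%; 1.88% higher and 1.23% lower). Among them 131 rises and 110 falls were at least 2-fold on the log2 scale, and 35 rises and 22 falls at least 4-fold. The 3 dosed signals lay wholly above or below the 3 control signals in all 581, against 27.5% of all probe sets tested (12% higher and 15.5% lower). Taken as genes, 388 of 10670 were called (3.64%; 2.27% higher and 1.37% lower), and these percentages are the background for the gene counts that follow. At an unadjusted limma p under 0.05 there were 2930 of 18625 probe sets, both directions together. That is the background for the unadjusted counts. Leaving out 1 of the 6 arrays cut the 581 calls to between 255 (without 1000 mg/kg replicate 1) and 329 (without 1000 mg/kg replicate 2), and to 296, 263, 282 and 267 without control replicates 1, 2 and 3 and 1000 mg/kg replicate 3. One array at 1500 mg/kg, replicate 3, deviated more from its group than any other (root mean square deviation 0.495, against 0.276 to 0.304 on the 6 compared arrays). Without it the pooled spread was smaller and 1448 probe sets were called, 580 of the 581 among them.

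**Figure D1:**
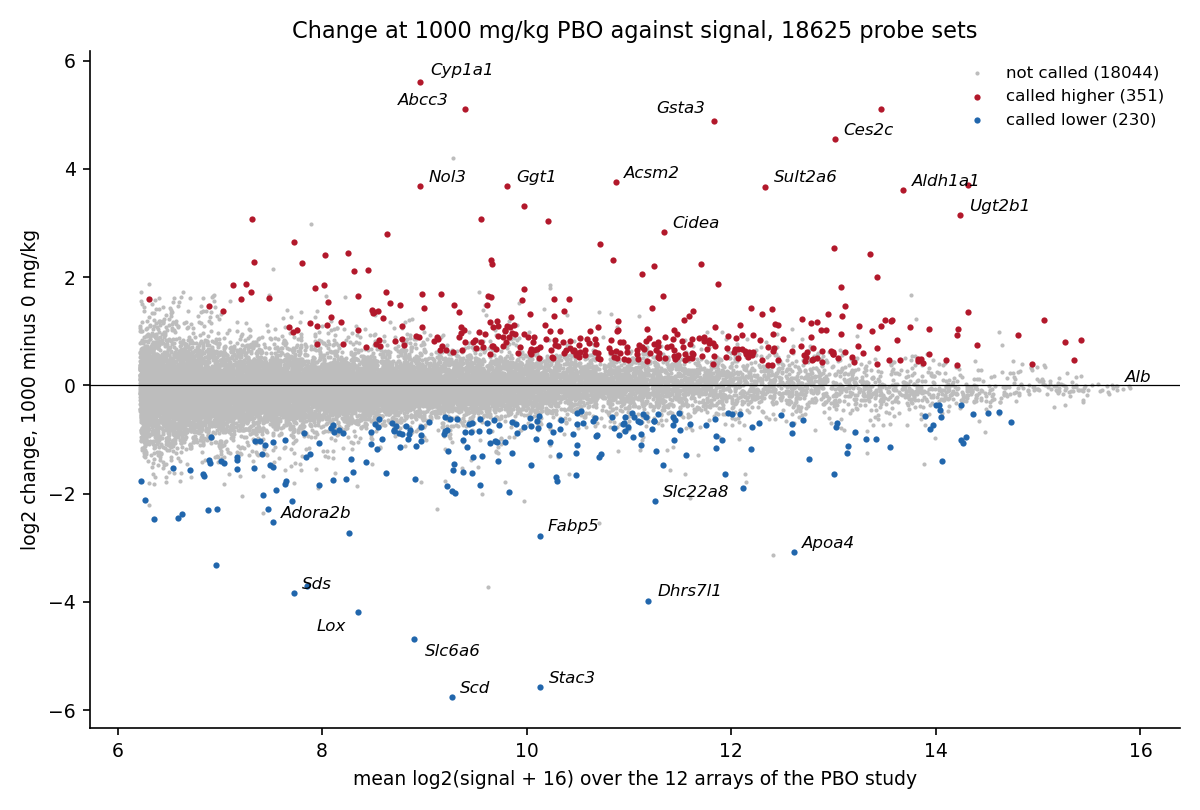
Log2 change at 1000 mg/kg PBO (1000 minus 0 mg/kg, vertical axis) against mean log2(signal + 16) over 12 arrays (horizontal axis), 1 point per probe set tested. The 351 points called higher and the 230 called lower stand off a dense band of uncalled probe sets that centres just below 0, at a median of -0.05.

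Cells other than hepatocytes were checked first. In bulk liver RNA, fewer cells of a type and less RNA per cell cannot be told apart. Of 11 tested hepatocyte markers 10 were not called and 1, the urea cycle enzyme Cps1, fell by 0.50 ± 0.12 (adjusted p = 0.0381; lost with each of the 6 arrays left out, adjusted p 0.0587 to 0.152). Another Cps1 probe set fell by 0.80 (adjusted p = 0.00606). The summed hepatocyte signal was 374388 to 463008 in the controls and 372965 to 400366 at 1000 mg/kg. Albumin, Alb, the main plasma protein, gave 44668, 51309 and 68712 in the controls and 56346, 51249.7 and 53606 at 1000 mg/kg and was not called (-0.01 ± 0.15, adjusted p = 0.987), and its other probe set had the opposite sign, not called either. Macrophage markers lay lower in sum, 23555 to 25512 in the controls and 13320 to 20731 at 1000 mg/kg. None of the 10 macrophage genes was called or had an unadjusted limma p under 0.05, and their median was -0.44 against -0.05 for all genes. The Kupffer cell lectin Clec4f read 5721, 4438 and 5298 in the controls and 2466, 3637 and 3057 at 1000 mg/kg, without overlap (-0.76 ± 0.39, adjusted p = 0.372; adjusted p = 0.0364 without 1500 mg/kg replicate 3). The erythroid sum lay outside the control range too, 8594 to 11385 against 21710 to 23136, and came mostly from beta-globin. All 4 tested erythroid genes lay wholly below the controls, with a median of -1.02. The 3 other than beta-globin differed by -1.52 to -0.90 and were not called (adjusted p 0.0515 to 0.389). Without 1500 mg/kg replicate 3, 3 of the 4 were called lower.

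Beta-globin, Hbb, read 21080.1, 20619.9 and 22059 in the controls and 10146, 10853 and 8167 at 1000 mg/kg and fell by 1.14 ± 0.23 (adjusted p = 0.019), every dosed animal below every control. That call was lost with each array left out other than 1000 mg/kg replicate 2 (adjusted p 0.0636 to 0.0883). Sinusoidal endothelial (8 tested, median -0.20), T and NK cell (4, -0.33), B and plasma cell (2, -0.67), neutrophil (2, -0.08), adipocyte (2, -0.42) and skeletal muscle markers (1, -0.65) gave no call. In the same order 1, 0, 1, 0, 0 and 0 of them had an unadjusted limma p under 0.05. Among 12 stellate cell and fibroblast markers only the collagen cross-linker Lox fell (described among the largest changes), with a list median of -0.30. Of 4 tested bile duct markers the adhesion molecule Epcam rose, from 839.5, 786 and 846 to 1714, 1395 and 1445 (0.86 ± 0.13, adjusted p = 0.00299). The other 3 were lower and not called, and the list median was -0.36. Krt19 read 209, 153 and 250.3 in the controls and 188, 93.1 and 112 at 1000 mg/kg (-0.61 ± 0.30, adjusted p = 0.356). Spp1 differed by -0.73 (adjusted p = 0.406) and Cftr by -0.12 (adjusted p = 0.905). Of 2 exocrine pancreas markers the elastase Cela1 fell by 1.21 ± 0.18 (adjusted p = 0.00329). The part of these shifts in the results below was not tested.

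Of 7 tested AhR targets 3 rose and 0 fell (2.27% and 1.37% of all genes), with a median of 0.75 against -0.05 for all genes. Cyp1a1, the classic AhR-induced P450, gave signals of 3.96, 20.5 and 12.0 in the controls and 1731, 482 and 2742 at 1000 mg/kg. Replicate 2 was the lowest of the dosed animals and still far above every control (5.61 ± 0.62, adjusted p = 0.000283). Without that animal the difference was 6.33. The control signals lie near the pseudocount of 16, which limits the precision of this log2 difference. Cyp1a2, its constitutive neighbour in the family, read 19276, 18669 and 17209.8 in the controls and 28474, 24956 and 41138 at 1000 mg/kg, without overlap, yet was not called (0.75 ± 0.27, adjusted p = 0.188; adjusted p = 0.00814 without 1500 mg/kg replicate 3). The receptor gene Ahr itself gave 85.2, 66.7 and 31.9 in the controls and 208, 195 and 403 at 1000 mg/kg and rose by 1.87 ± 0.42 (adjusted p = 0.029). Its call was kept only without control replicate 1 and lost in the other 5 cases (adjusted p 0.0536 to 0.132), and another Ahr probe set showed no rise (-0.07, adjusted p = 0.964). The quinone reductase Nqo1, shared with NRF2, was the third gene called.

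CAR and PXR responsive P450s were tested where a probe set had a single symbol. Of 9 such members, their electron donor Por included, 2 rose and 0 fell, with a median of 0.24. Cyp2b1 and Cyp2b2, the P450s best known as CAR targets, are not among the 9: the platform annotation gives both symbols to 1 probe set, 1371076_at, so its signal cannot be assigned to either. That probe set read 2842, 3327 and 2948 in the controls and 40576, 37053 and 40845 at 1000 mg/kg and rose by 3.69 ± 0.11 (adjusted p = 1.14e-09). Cyp3a23-3a1, the main inducible steroid 6-beta-hydroxylase of rat liver, read 24721, 24677 and 28714 in the controls and 46593, 42032 and 47617 at 1000 mg/kg and rose by 0.80 ± 0.10 (adjusted p = 0.00074), no dosed animal within the control range. The male form Cyp3a2 gave 29188, 31335 and 32962 in the controls and 35210.4, 33189.8 and 32753 at 1000 mg/kg, with overlap, and was not called (0.11 ± 0.11, adjusted p = 0.69). Por rose from 1353, 1682 and 1411 to 3536, 2997 and 4393 (1.28 ± 0.30, adjusted p = 0.0407). That call was lost in all 6 cases of a left-out array (adjusted p 0.0698 to 0.161), though another of its probe sets was called at 1.64 (adjusted p = 0.00433). Alas1, the first enzyme of haem synthesis, overlapped between the groups, with 4508, 5922 and 1932 in the controls and 8524, 5027 and 7087 at 1000 mg/kg, and was not called (0.85 ± 0.35, adjusted p = 0.258).

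Enzymes and transporters that CAR and PXR raise beside the P450s had 9 rises and 0 falls among 12, with a median of 1.69 and 7 higher with any 1 of the 6 arrays left out. The carboxylesterase Ces2c read 878, 548 and 885 in the controls and 18287, 15780.3 and 20184 at 1000 mg/kg, a 23.5-fold higher mean (4.55 ± 0.20, adjusted p = 6.15e-08). Aldh1a1, which oxidises retinal and other aldehydes, went from 1714, 1875 and 2454 to 25957, 22794 and 24879 (12.2-fold; 3.61 ± 0.16, adjusted p = 5.89e-08). Neither gene had a dosed animal anywhere near the controls. Microsomal epoxide hydrolase, Ephx1, gave 16013, 17715 and 19844 in the controls and 43126, 40285 and 40021 at 1000 mg/kg and rose by 1.21 ± 0.12 (adjusted p = 9.61e-05). Ugt2b1, a glucuronosyltransferase, read 3172, 3148 and 5874 in the controls and 35029, 33614 and 34489 at 1000 mg/kg and rose by 3.14 ± 0.20 (adjusted p = 1.83e-06). Control replicate 3 was the highest control, and the 3 dosed animals lay within 1 narrow band.

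Transport genes of the same list covered both faces of the hepatocyte. The basolateral conjugate exporter Abcc3 read 18, 15.7 and 63.3 in the controls and 1419, 1521 and 1579 at 1000 mg/kg (5.11 ± 0.29, adjusted p = 7.67e-07). The uptake carrier Slco1a4 went from 12556, 11407 and 12375 to 23634, 20358 and 25513 (0.93 ± 0.11, adjusted p = 0.000726). Both groups of signals were apart in each gene. The multidrug exporter Abcb1a rose from 158, 208 and 141 to 499, 418 and 622 (1.52 ± 0.35, adjusted p = 0.0335). The conjugating enzyme Gstm1 rose from 28688, 33055 and 32522 to 46422, 43490.2 and 41137 (0.48 ± 0.10, adjusted p = 0.0242). Both calls were lost in all 6 cases of a left-out array (adjusted p 0.0537 to 0.136). The 3 members not called were Abcc2, Gadd45b and Ephx2. The canalicular exporter Abcc2 read 5633, 5629.5 and 4348 in the controls and 6509, 6804 and 7546 at 1000 mg/kg (adjusted p = 0.28). Gadd45b, a CAR-responsive stress gene, read 20.4, 54.5 and 109 in the controls and 89.6, 99.7 and 89.4 at 1000 mg/kg (adjusted p = 0.81). The soluble epoxide hydrolase Ephx2 read 193, 2918 and 285 in the controls and 2037, 1925 and 2209.9 at 1000 mg/kg (adjusted p = 0.378). Among 13 exporters as a group, Abcc3 and Abcb1a were the only calls (median -0.01, or 0.10 with median scaling). Abcc6 read 1848, 1850.2 and 1889.7 in the controls and 1251, 1187 and 1144 at 1000 mg/kg (-0.64 ± 0.24, adjusted p = 0.213; adjusted p = 0.00108 without 1500 mg/kg replicate 3).

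**Figure D2:**
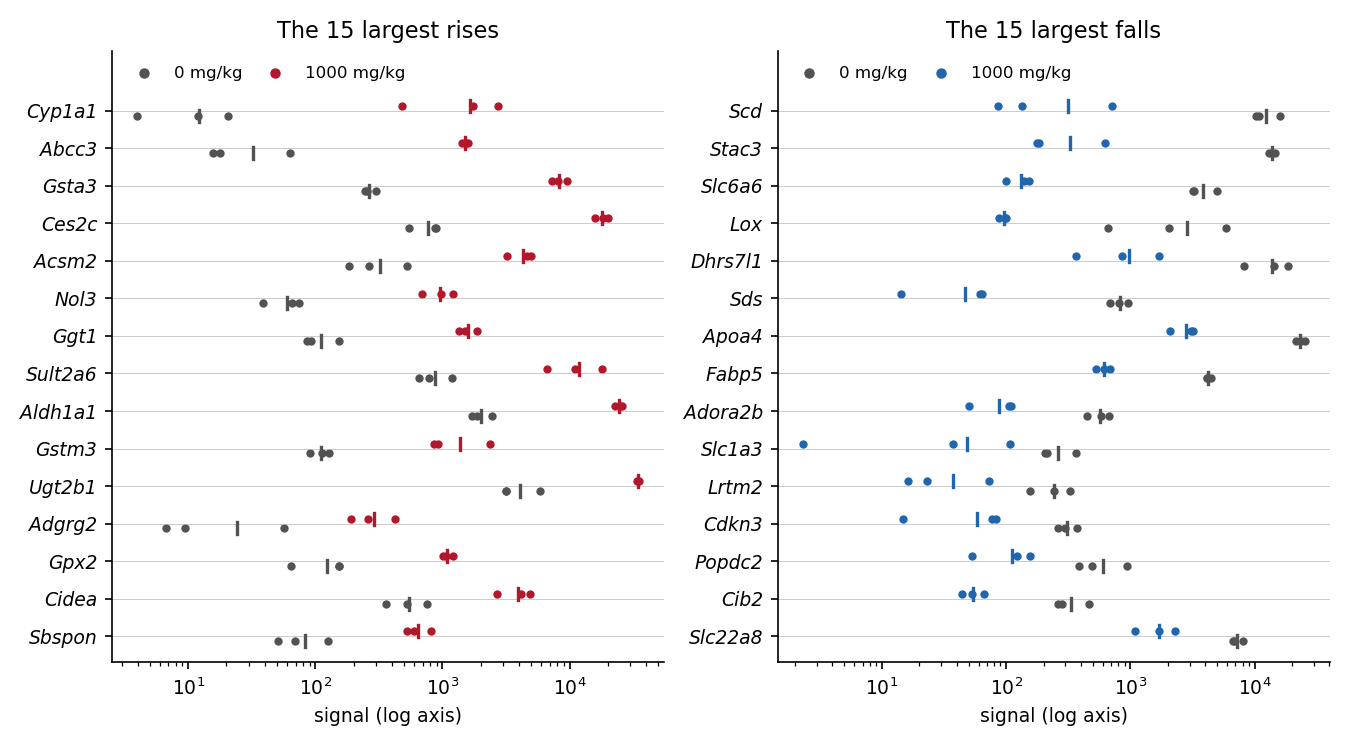
Signals (horizontal axes, log scale) of the 15 genes with the largest rises (left) and falls (right) at 1000 mg/kg PBO; points are single animals, grey for 0 mg/kg and coloured for 1000 mg/kg, and short bars are group means. In every gene shown the 3 dosed and the 3 control animals occupy separate ranges, as the rule that chose them required, and Slc1a3 at 1000 mg/kg and Lox at 0 mg/kg have the widest scatter within a group.

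Phase 1 enzymes outside the receptor lists changed in both directions. Of 24 flavin monooxygenases, reductases, dehydrogenases and related enzymes 4 rose and 1 fell (median 0.17; 6 and 3 without 1500 mg/kg replicate 3). Akr7a3, which reduces aflatoxin dialdehyde, read 3247, 3359 and 2938 in the controls and 14495, 17779.9 and 8238 at 1000 mg/kg and rose by 2.01 ± 0.27 (adjusted p = 0.00144), dosed replicate 3 being the lowest of its group. Dhrs7l1, a short-chain dehydrogenase, fell 14.2-fold in its mean, from 14423, 18689 and 8143 to 857, 1689.9 and 367 (-3.97 ± 0.90, adjusted p = 0.032), with no overlap. Aldehyde oxidase Aox1 rose by 0.68 ± 0.16, Akr7a2 by 0.56 ± 0.13 and Akr1c14 by 0.37 ± 0.09 (adjusted p = 0.0382, 0.0398 and 0.044). Akr7a3 kept its call throughout. Akr1c14 lost its call in all 6 cases, Aox1 in 4 (kept without control replicate 2 or 1000 mg/kg replicate 3), Akr7a2 in 5 (kept without 1000 mg/kg replicate 3) and Dhrs7l1 in 5 (kept without 1000 mg/kg replicate 2), at adjusted p 0.0612 to 0.166. Another Akr1c14 probe set rose by 0.45 (adjusted p = 0.0242), and a further one was not called (0.33, adjusted p = 0.0638).

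Of 33 other P450s 1 rose and 2 fell (2 and 4 without 1500 mg/kg replicate 3), with a median of -0.02 (0.10 with median scaling). Cyp2j4, an arachidonic acid epoxygenase, rose from 2015, 3936 and 2572 to 5975, 6119.5 and 5857 (1.13 ± 0.24, adjusted p = 0.0243). Cyp4f6 fell from 5375, 5634 and 5166 to 3088, 3512 and 3189 (-0.72 ± 0.14, adjusted p = 0.0155). Cyp2d4 fell from 1345, 1602 and 1155 to 1001, 875 and 875 (-0.56 ± 0.14, adjusted p = 0.0459). Its other probe set fell by 0.88 (adjusted p = 0.0408). All 3 had separate groups but uncertain calls: Cyp2j4 kept its call only without control replicate 2, Cyp2d4 only without control replicate 3, and Cyp4f6 without control replicate 3 or 1000 mg/kg replicate 2 (otherwise adjusted p 0.0587 to 0.188). Cyp4a1, the fatty acid hydroxylase induced through PPARalpha, overlapped with the controls (6151, 4571 and 6927 in the controls and 7890.1, 6358 and 12292 at 1000 mg/kg) and was not called (adjusted p = 0.27).

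Glutathione S-transferases, which couple glutathione to electrophiles, had 7 rises and 0 falls among 21 (median 0.28), and 6 or 7 rises with any 1 array left out. Gsta3 read 298, 257 and 244 in the controls and 9558, 8122 and 7213 at 1000 mg/kg, a 31.2-fold higher mean (4.88 ± 0.17, adjusted p = 5.16e-09). Gstm3 gave 112, 127 and 90.7 in the controls and 2351, 924 and 863 at 1000 mg/kg (12.5-fold; 3.32 ± 0.43, adjusted p = 0.00108), dosed replicate 1 standing above the other two. The theta class gene Gstt3 went from 6616, 3326 and 1349 to 13529, 19963 and 17076 (2.42 ± 0.42, adjusted p = 0.00808), the controls spreading widely, and its difference was 1.82 without control replicate 3. Smaller rises that held with every array left out were those of the microsomal Mgst2 (1.2 ± 0.10), of Gsta4 (1.04 ± 0.18), which detoxifies the lipid aldehyde hydroxynonenal, and of Gstm2 (0.74 ± 0.10). Gstm1, described above, was the seventh gene. Gstp1, the placental form used as a mark of preneoplastic foci, read 804, 779.6 and 858 in the controls and 624, 924 and 846 at 1000 mg/kg and was not called (-0.05 ± 0.40, adjusted p = 0.973).

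Glucuronosyltransferases and sulfotransferases had 4 rises and 1 fall among 18 (median 0.18). Sult2a6, a hydroxysteroid and bile acid sulfotransferase, read 650.2, 1184 and 784 in the controls and 10967, 6668 and 18051 at 1000 mg/kg, a 13.6-fold higher mean (3.67 ± 0.38, adjusted p = 0.000191). Ugt2b10 went from 4554, 4607 and 4826 to 11344, 10019.7 and 13083 (1.29 ± 0.22, adjusted p = 0.00736). The gene of the enzyme that makes UDP-glucuronate, Ugdh, rose by 0.47 ± 0.11 (adjusted p = 0.0437, kept only without 1000 mg/kg replicate 3 and otherwise adjusted p 0.105 to 0.164). Papss2, which makes the sulfate donor, fell by 0.76 ± 0.11, from 7134, 7388 and 6406 to 4684, 3823 and 3860.0 (adjusted p = 0.00169). Ugt2b was split within the dosed group: controls read 25952, 27724 and 26689.5 and dosed animals 18979, 62.5 and 19219. Dosed replicate 2 alone was low, and the difference was not called (-3.13 ± 2.13, adjusted p = 0.523).

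NRF2 targets and enzymes of NADPH supply held 11 rises and 1 fall among 26, with a median of 0.81. Rises numbered 10 with any 1 array left out. In 18 of the 26 the dosed signals lay wholly above the controls, against 12% of all probe sets. The promoters of called members that held the motif searched for their regulator are shown before the values, because these genes rose together. Across 27457 RefSeq rat promoters (build GRCr8, 250 bases before to 50 after the start, both strands), the NRF2 motif TGACNNNGC was found in 12.2%, and in 3 of the 10 called members of this list with an entry. The AhR motif GCGTG was found in 31.1% of all promoters and in 1 of 2 called AhR targets with an entry. Below, the 250 bases before the start are printed along the gene's own strand, with the match in capitals; a match on the opposite strand appears as the reverse complement. A match is a description of the letters only.
Me1, chr8:96540245-96540494, minus strand, TGACNNNGC on the gene's strand, 167 bases before the start: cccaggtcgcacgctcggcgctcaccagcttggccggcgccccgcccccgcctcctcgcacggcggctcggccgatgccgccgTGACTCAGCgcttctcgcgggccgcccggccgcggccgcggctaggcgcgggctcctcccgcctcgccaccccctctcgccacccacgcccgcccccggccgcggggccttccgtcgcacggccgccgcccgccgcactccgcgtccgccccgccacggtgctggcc
Gpx2, chr6:101230034-101230283, minus strand, TGACNNNGC on the opposite strand, 13 bases before the start: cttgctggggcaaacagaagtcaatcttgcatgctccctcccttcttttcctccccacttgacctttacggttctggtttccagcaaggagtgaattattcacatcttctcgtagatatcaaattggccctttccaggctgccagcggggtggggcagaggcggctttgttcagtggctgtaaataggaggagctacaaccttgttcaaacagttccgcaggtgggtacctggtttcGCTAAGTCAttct
Gclm, chr2:213031885-213032134, plus strand, TGACNNNGC on the opposite strand, 172 bases before the start: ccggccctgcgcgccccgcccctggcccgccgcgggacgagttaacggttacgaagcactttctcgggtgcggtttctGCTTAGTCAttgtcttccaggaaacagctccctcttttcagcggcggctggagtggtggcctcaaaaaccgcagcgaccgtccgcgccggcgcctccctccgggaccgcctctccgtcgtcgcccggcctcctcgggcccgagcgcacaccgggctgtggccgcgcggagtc
Nqo1, chr19:52220268-52220517, minus strand, GCGTG on the opposite strand, 10 bases before the start: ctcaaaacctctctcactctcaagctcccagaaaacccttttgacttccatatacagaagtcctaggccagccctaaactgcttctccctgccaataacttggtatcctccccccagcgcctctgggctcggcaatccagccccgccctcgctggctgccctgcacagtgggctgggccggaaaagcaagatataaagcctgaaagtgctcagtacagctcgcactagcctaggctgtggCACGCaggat

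The other motif searches gave no match in called members: TCACNCCAC (SREBP, 1.13% of all promoters) in 0 of 9 called lipid genes and TGATGNAA (ATF4, 3.82%) in 0 of 3. The CAR and PXR motif, AGGTCA and a second AGGTCA separated by 4 bases of any kind (0.00364% of all promoters, 1 promoter), matched in 0 of 10. This says only that these letters are not in this window.

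The 4 genes printed all rose, with every dosed animal above every control and each call kept with any 1 array left out. Malic enzyme Me1, which makes NADPH, read 1352, 1198 and 1466 in the controls and 4073, 5322 and 5519 at 1000 mg/kg (1.87 ± 0.17, adjusted p = 6.33e-05). The glutathione peroxidase Gpx2 gave 64.3, 155 and 152 in the controls and 1006, 1064 and 1214 at 1000 mg/kg, a 8.84-fold higher mean (3.07 ± 0.44, adjusted p = 0.00218). Gclm, the regulatory subunit of the first enzyme of glutathione synthesis, went from 5049, 4413 and 4763 to 7436, 10469 and 8872 (0.90 ± 0.15, adjusted p = 0.00559). Nqo1 read 4969, 2543 and 4623 in the controls and 14074, 13430.3 and 13784 at 1000 mg/kg (1.82 ± 0.24, adjusted p = 0.00118), and its 3 dosed values lay close together while control replicate 2 was low.

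Further NRF2 members served glutathione turnover. The gamma-glutamyl transferase Ggt1, which breaks down glutathione outside the cell, read 86.1, 92.8 and 154 in the controls and 1508, 1358 and 1873 at 1000 mg/kg, a 14.3-fold higher mean (3.68 ± 0.22, adjusted p = 1.36e-06). Glutathione reductase Gsr went from 478, 464 and 573 to 1799, 1370.0 and 1495 (1.59 ± 0.17, adjusted p = 0.000273). Biliverdin reductase Blvrb rose from 2742, 2352 and 2437 to 7908, 4625 and 6789 (1.32 ± 0.17, adjusted p = 0.000919). All 3 were free of overlap and kept their calls. Gclc, the catalytic partner of Gclm, rose by 0.61 ± 0.15 (adjusted p = 0.0463). Tkfc, which phosphorylates dihydroxyacetone, fell by 1.10 ± 0.25 (adjusted p = 0.032). Both calls were lost in all 6 cases of a left-out array (adjusted p 0.0587 to 0.167). Another Gclc probe set rose by 0.82 (adjusted p = 0.0312), and another Tkfc probe set was not called (-0.01, adjusted p = 0.993). Among well-known targets not called were thioredoxin reductase Txnrd1 (0.17 ± 0.21, adjusted p = 0.753), haem oxygenase Hmox1 (0.39 ± 0.33, adjusted p = 0.62) and sulfiredoxin Srxn1 (0.98 ± 0.51, adjusted p = 0.384; adjusted p = 0.0196 without 1500 mg/kg replicate 3). Among 12 markers of altered hepatic foci 6 rose and 0 fell (median 1.04), and all 6 belong to lists above (Abcc3, Akr7a3, Ephx1, Ggt1, Gpx2 and Nqo1). Haem synthesis and breakdown had Blvrb as the only call among 13 (median -0.01, or 0.10 with median scaling). The synthesis enzyme Urod read 3093, 3376 and 3459 in the controls and 2849, 3222 and 2314 at 1000 mg/kg and the constitutive haem oxygenase Hmox2 1787, 1816 and 2029.7 in the controls and 2498, 2191 and 1957 at 1000 mg/kg, neither called.

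**Figure D3:**
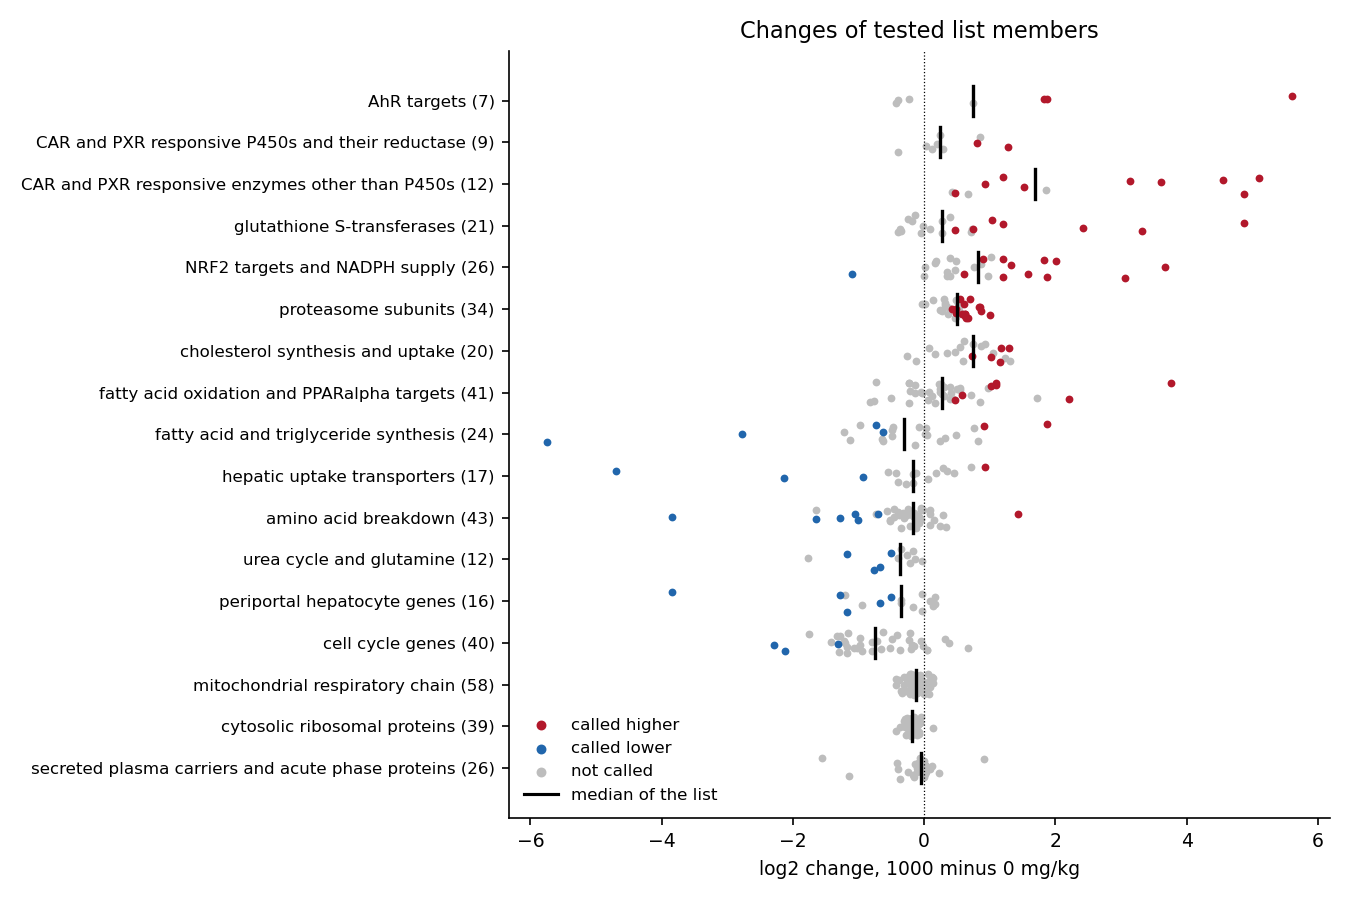
Log2 change at 1000 mg/kg PBO (horizontal axis) of the tested members of 17 gene lists (vertical axis, number tested in brackets); each point is 1 gene, coloured by its call, and black bars are list medians. Rises of the NRF2, CAR and PXR and proteasome lists stand beside the falls of urea cycle, periportal and cell cycle genes, and respiratory chain and ribosomal genes stay close to 0.

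The proteasome, the complex that degrades ubiquitin-tagged proteins, had many small rises. Of 34 tested subunits and factors 16 rose and 0 fell, with a median of 0.50. The count was 4 to 8 with 1 of the 6 arrays left out and 27 without 1500 mg/kg replicate 3. It was 3 in a limma fit without the intensity trend. In 30 of the 34 the dosed signals lay wholly above the controls, against 12% of all probe sets. Their median relative to the control mean was 0.53, 0.44 and 0.57 in the 3 dosed animals and 0.01, 0.03 and -0.04 in the controls.

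Within the catalytic 20S core, 5 of 6 tested beta ring genes rose (median 0.61) and 2 of 7 alpha ring genes (median 0.53). Psmb3 read 6309.9, 6026 and 6458 in the controls and 15348, 11572 and 11095 at 1000 mg/kg (1.00 ± 0.15, adjusted p = 0.00286) and Psmb4 7407, 8560.0 and 7474 in the controls and 15348, 13263 and 13300.4 at 1000 mg/kg (0.84 ± 0.11, adjusted p = 0.00095), both without overlap. Psmb7 rose by 0.62 ± 0.11, Psmb5, a catalytic subunit, by 0.61 ± 0.15 and Psmb1 by 0.48 ± 0.09. In the alpha ring Psma7 rose by 0.63 ± 0.13 and Psma2 by 0.57 ± 0.12, while Psma3 read 1101, 1329 and 1144 in the controls and 1092, 1229 and 1145 at 1000 mg/kg and was not called (-0.04 ± 0.15, adjusted p = 0.929). In the 19S cap, which binds and unfolds substrates, 3 of 6 ATPase genes rose (Psmc5 0.67 ± 0.14, Psmc4 0.63 ± 0.14 and Psmc3 0.55 ± 0.12) and 5 of 12 others. Psmd2 led those with 2616, 2523 and 2762 in the controls and 5313, 4199.8 and 5073 at 1000 mg/kg (0.87 ± 0.13, adjusted p = 0.00285), followed by Psmd13 at 0.85 ± 0.21, Psmd8 at 0.70 ± 0.14, Psmd14, which removes ubiquitin, at 0.62 ± 0.15 and Psmd1 at 0.49 ± 0.12. The ATPase Psmc6 read 3943, 3764 and 4194 in the controls and 3525, 3732 and 4852 at 1000 mg/kg and was not called (0.01 ± 0.15, adjusted p = 0.981), and its other 2 probe sets had the opposite sign, also not called.

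The assembly factor Pomp rose by 0.42 ± 0.08 (adjusted p = 0.0169), and neither 11S activator gene was called (Psme2 0.13 ± 0.11, adjusted p = 0.614). Adjusted p-values of the 16 calls ran from 0.00095 for Psmb4 to 0.0499 for Psmd13. Only Psmb3, Psmb4 and Psmd2 kept the call with every array left out. Psmb7 lost it without 1000 mg/kg replicate 1 (adjusted p = 0.0541) and Psmb1 without control replicate 2 or 1000 mg/kg replicate 1 (adjusted p 0.0661 to 0.0665). Psmc4 and Psmd8 kept it only without 1000 mg/kg replicate 2, Psmc5 only without 1000 mg/kg replicate 1 and Pomp only without 1000 mg/kg replicate 3 (otherwise adjusted p 0.0593 to 0.131). For Psma2, Psma7, Psmb5, Psmc3, Psmd1, Psmd13 and Psmd14 it was lost in all 6 cases (adjusted p 0.0502 to 0.196). Another Psmd14 probe set rose by 0.72 (adjusted p = 0.0204), and a further one was not called (0.53, adjusted p = 0.0926).

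Cholesterol synthesis and uptake had 5 rises and 0 falls among 20 (median 0.74), with 13 members wholly above the controls (12% of all probe sets). Squalene epoxidase Sqle, a controlling step of the pathway, read 615, 695 and 576 in the controls and 1439, 1703 and 1526 at 1000 mg/kg (1.29 ± 0.19, adjusted p = 0.00308). Of the later steps, Msmo1 rose from 3890.1, 4689 and 4352 to 8482, 10234 and 10424 (1.17 ± 0.24, adjusted p = 0.0188). Dhcr7 rose from 4979.7, 5154 and 4567 to 9733, 9879.6 and 10113 (1.02 ± 0.22, adjusted p = 0.0255) and Sc5d by 0.74 ± 0.17 (adjusted p = 0.0376). Idi1, an isoprenoid step before squalene, rose by 1.16 ± 0.28 (adjusted p = 0.0463). Cyp51, which demethylates lanosterol, read 9727, 8325 and 9956 in the controls and 22538, 20352 and 22585 at 1000 mg/kg, without overlap, but was not called (1.23 ± 0.33, adjusted p = 0.0654; adjusted p = 0.000866 without 1500 mg/kg replicate 3). Only Sqle kept its call with each array left out. Msmo1 kept it without 1000 mg/kg replicate 1 only, and Dhcr7, Sc5d and Idi1 lost it in all 6 cases (adjusted p 0.0553 to 0.159). The list thus had 1 or 2 rises in those fits, and 10 without 1500 mg/kg replicate 3.

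Bile acid synthesis and its control gave 2 rises and 0 falls among 19 (median -0.11, or 0.01 with median scaling). Akr1d1, which reduces the steroid ring of bile acid precursors, rose from 7639, 9918 and 16015 to 20703, 23630.5 and 22016 (1.05 ± 0.24, adjusted p = 0.0324; kept only without control replicate 3, otherwise adjusted p 0.0844 to 0.122), and Akr1c14 was the other gene. Cyp7a1, the rate-limiting enzyme, scattered within groups, with 1235, 4135 and 1261 in the controls and 2091, 3253 and 2119.6 at 1000 mg/kg (0.38 ± 0.76, adjusted p = 0.858). Its repressor Nr0b2 (SHP) read 474, 1684 and 340.0 in the controls and 1424, 3079 and 2765 at 1000 mg/kg and was not called (1.79 ± 0.58, adjusted p = 0.131). Neither was the hepatocyte regulator Hnf4a, with 9063, 11278 and 10348 in the controls and 6424, 7973 and 8666 at 1000 mg/kg (-0.42 ± 0.14, adjusted p = 0.143), whose other 2 probe sets had the opposite sign (0.43 and 0.52).

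Fatty acid and triglyceride synthesis had 2 rises and 4 falls among 24 (median -0.31). With 1 of the 6 arrays left out 1 or 2 rose and 2 or 3 fell, and without 1500 mg/kg replicate 3 4 rose and 10 fell. Stearoyl-CoA desaturase Scd, which makes oleate, read 10752, 10273 and 16046 in the controls and 86.1, 135 and 714 at 1000 mg/kg, a 39.6-fold lower mean (-5.76 ± 0.62, adjusted p = 0.000255). Dosed replicate 3 was the highest of its group but still far under every control, and without it the difference was -6.61. The fatty acid binding protein Fabp5 fell from 4119, 4141 and 4485 to 529, 685 and 617 (6.96-fold; -2.77 ± 0.24, adjusted p = 4.59e-05), with tight groups. The elongase Elovl5 fell by 0.73 ± 0.17 and the acyl-CoA synthetase Acsl5 by 0.62 ± 0.14 (adjusted p = 0.0324 and 0.0296). The phosphatidate phosphatase Lpin2 rose by 0.92 ± 0.23 (adjusted p = 0.0463) beside Me1, while another Lpin2 probe set had the opposite sign (-0.39, not called). The calls of Elovl5 (in all 6 cases), Acsl5 (kept only without control replicate 2) and Lpin2 (kept only without 1000 mg/kg replicate 1) did not survive left-out arrays (adjusted p 0.0507 to 0.171). The lipogenic regulator Srebf1 was not called, although its signals of 5175, 5936 and 5861 in the controls and 2614, 2512 and 2566 at 1000 mg/kg did not overlap (-1.13 ± 0.32, adjusted p = 0.0852; adjusted p = 5.93e-06 without 1500 mg/kg replicate 3).

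Fatty acid oxidation and PPARalpha targets had 7 rises and 0 falls among 41 (median 0.27), 4 to 7 with 1 array left out and 12 without 1500 mg/kg replicate 3. The medium-chain acyl-CoA synthetase Acsm2 read 262, 185 and 527 in the controls and 4958, 3243 and 4627 at 1000 mg/kg, a 13.2-fold higher mean (3.76 ± 0.31, adjusted p = 2.68e-05). The pantetheinase Vnn1, a sensitive PPARalpha target, went from 595, 743 and 777 to 3142, 2914 and 3883 (2.21 ± 0.19, adjusted p = 4.59e-05). Both were free of overlap. Enzymes of the oxidation cycle rose by less: Ech1 by 1.02 ± 0.15 and Decr1 by 0.58 ± 0.10 (adjusted p = 0.00346 and 0.00851, kept with any array left out), Ehhadh by 1.10 ± 0.23, Eci1 by 1.09 ± 0.20 and the thiolase Hadhb by 0.46 ± 0.09 (adjusted p = 0.0202, 0.0105 and 0.0187). Ehhadh kept its call without control replicate 1 or 1000 mg/kg replicate 2, Eci1 lost it without 1000 mg/kg replicate 1 or 3, and Hadhb kept it only without 1000 mg/kg replicate 2 (otherwise adjusted p 0.0532 to 0.0956). The peroxisomal Hsd17b4 (0.40 ± 0.11, adjusted p = 0.0902; adjusted p = 0.0162 without 1500 mg/kg replicate 3), the thioesterase Acot1 (signals 24.1, 22.7 and 27.7 in the controls and 43.9, 63.5 and 68.0 at 1000 mg/kg; 0.85 ± 0.93, adjusted p = 0.722) and the fatty acid carrier Cd36 (signals 586, 318 and 378 in the controls and 955, 1670.5 and 1703 at 1000 mg/kg; 1.72 ± 0.58, adjusted p = 0.151; adjusted p = 0.00275 without 1500 mg/kg replicate 3) were not called, all 3 without overlap between the groups.

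Among 20 apolipoproteins and lipoprotein genes 1 fell and 0 rose (median -0.12, or -0.01 with median scaling; 3 fell without 1500 mg/kg replicate 3). Apoa4, an apolipoprotein of triglyceride-rich particles, read 21419.8, 25254 and 23419.6 in the controls and 3219, 3099 and 2096 at 1000 mg/kg, a 8.33-fold lower mean (-3.07 ± 0.40, adjusted p = 0.00109), and kept its call with each array left out. Its relative Apoa1 gave 37222, 38574 and 39579 in the controls and 44515, 41885 and 42711 at 1000 mg/kg and was not called (0.16 ± 0.09, adjusted p = 0.445). Apoc4 (-0.51 ± 0.13, adjusted p = 0.0611; adjusted p = 0.026 without 1500 mg/kg replicate 3), the phospholipid transfer protein Pltp (-0.77 ± 0.27, adjusted p = 0.169) and lipoprotein lipase Lpl, with 311, 270.3 and 273 in the controls and 891, 386 and 566 at 1000 mg/kg (0.99 ± 0.37, adjusted p = 0.205), were not called either.

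Uptake carriers had 1 rise (Slco1a4) and 3 falls among 17 (median -0.17), counts that were the same with any 1 of the 6 arrays left out (3 and 5 without 1500 mg/kg replicate 3). The taurine transporter Slc6a6 read 4956, 3209.9 and 3253 in the controls and 100, 139 and 153 at 1000 mg/kg, a 29.1-fold lower mean (-4.69 ± 0.56, adjusted p = 0.000614), and another of its probe sets fell by 3.70 (adjusted p = 0.0039). Slc22a8, an organic anion carrier, went from 6781, 8089 and 6702 to 1696, 2294 and 1091 (-2.13 ± 0.24, adjusted p = 0.000405). The monocarboxylate carrier Slc16a1 fell from 5949.8, 5733 and 5273 to 3870.3, 2376 and 2822 (-0.93 ± 0.16, adjusted p = 0.00857). No dosed animal reached the control range in any of the 3.

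Glucose metabolism had 0 rises and 2 falls among 19 (median -0.19), and 6 falls without 1500 mg/kg replicate 3. Of the 19 members 9 lay wholly below the controls (15.5% of all probe sets). The glucokinase regulator Gckr fell by 0.52 ± 0.12 and fructose bisphosphatase Fbp1 by 0.35 ± 0.09 (adjusted p = 0.0326 and 0.0488), calls lost in all 6 cases of a left-out array (adjusted p 0.0544 to 0.184). Pyruvate carboxylase Pc read 2335, 2411 and 2912 in the controls and 1288, 2126 and 1480.4 at 1000 mg/kg (-0.67 ± 0.17, adjusted p = 0.052; adjusted p = 0.0211 without 1500 mg/kg replicate 3). Pfkfb1, which sets the glycolytic signal fructose 2,6-bisphosphate, read 1929.5, 2084 and 2053 in the controls and 1463, 1524 and 1319.6 at 1000 mg/kg (-0.49 ± 0.13, adjusted p = 0.0667; adjusted p = 0.0104 without 1500 mg/kg replicate 3). Neither was called, though both were without overlap.

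Amino acid breakdown had 1 rise and 6 falls among 43 (median -0.17; 11 falls without 1500 mg/kg replicate 3), with 17 members wholly below the controls (15.5% of all probe sets). Serine dehydratase Sds read 686, 806 and 960.4 in the controls and 62.0, 64.5 and 14.4 at 1000 mg/kg (-3.84 ± 0.92, adjusted p = 0.0407). Glycine N-methyltransferase Gnmt, which disposes of methyl groups, went from 20031, 21159 and 19619 to 6749, 5305 and 7585 (-1.64 ± 0.30, adjusted p = 0.0095). Bhmt, which remethylates homocysteine, fell from 31650.1, 35300.5 and 30410.5 to 15483, 16536 and 14658 (-1.06 ± 0.13, adjusted p = 0.000578). Both methionine cycle genes kept their calls with every array left out. The same held for Agxt, which detoxifies glyoxylate (4449, 3662 and 4239 to 2136, 2125 and 1842; -1.01 ± 0.15, adjusted p = 0.00344), for Kynu of tryptophan breakdown (-0.70 ± 0.10, adjusted p = 0.00232), and for the single rise, Hibch of valine breakdown (2169.9, 2219.6 and 1840.1 to 6851, 4978 and 5168; 1.43 ± 0.22, adjusted p = 0.00336). Histidine ammonia-lyase Hal fell by 1.28 ± 0.25 (adjusted p = 0.0156, kept without control replicate 2 or 1000 mg/kg replicate 2 and otherwise adjusted p 0.0629 to 0.0748), and the call of Sds was lost in all 6 cases (adjusted p 0.0842 to 0.161).

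The urea cycle and glutamine list had 0 rises and 4 falls among 12 (2 or 3 falls with 1 of the 6 arrays left out, 6 without 1500 mg/kg replicate 3), with a median of -0.37 and 10 members wholly below the controls (15.5% of all probe sets). Gls2, which releases ammonia from glutamine, read 6491, 8661 and 7509 in the controls and 3332, 3483 and 3105 at 1000 mg/kg (-1.18 ± 0.13, adjusted p = 0.000255). The mitochondrial aspartate carrier Slc25a13 gave 10675, 12596 and 12699.8 in the controls and 7075, 7659 and 6430.0 at 1000 mg/kg (-0.76 ± 0.11, adjusted p = 0.0017). Both kept their calls. Argininosuccinate synthase Ass1 fell from 31824, 38254 and 39032 to 23915, 21832 and 22570.1 (-0.67 ± 0.12, adjusted p = 0.0115; kept without control replicate 1 or 1000 mg/kg replicate 1, otherwise adjusted p 0.0503 to 0.0605). Cps1, the entry step, read 27955, 30677 and 33306 in the controls and 20572, 21938 and 22179 at 1000 mg/kg. Ornithine aminotransferase Oat gave 10736, 9809 and 12849 in the controls and 2523, 2509 and 5254 at 1000 mg/kg, without overlap, but was not called (-1.78 ± 0.57, adjusted p = 0.132; adjusted p = 0.000937 without 1500 mg/kg replicate 3).

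Several of these genes work near the portal vein. Of 16 tested periportal genes 5 fell and 0 rose (median -0.36): Sds, Hal, Gls2, Ass1 and Cps1, all described above. The count was 1 or 2 with 1 of the 6 arrays left out. Of 13 perivenous genes Ahr rose and Gulo, an enzyme of vitamin C synthesis, fell, from 14675, 16099.7 and 16946 to 8151, 8927 and 9068 (-0.87 ± 0.12, adjusted p = 0.00159), with a list median of -0.06 (0.04 with median scaling). The difference between the zones was not tested.

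Serine synthesis and ATF4 targets, genes of the response to amino acid shortage, had 3 rises and 1 fall among 20 (median 0.27). Phgdh, the first enzyme of serine synthesis, read 116, 36.6 and 63.2 in the controls and 200.5, 675 and 588 at 1000 mg/kg (2.45 ± 0.49, adjusted p = 0.0169). Psat1, the next enzyme, read 209.8, 123 and 149.6 in the controls and 487, 632 and 561 at 1000 mg/kg (1.72 ± 0.31, adjusted p = 0.00882). Dosed replicate 1 was the lowest of its group in both genes, yet above every control. The amino acid carrier subunit Slc3a2 rose by 0.93 ± 0.22 (adjusted p = 0.0407) and the mitochondrial folate enzyme Aldh1l2 fell by 0.82 ± 0.19 (adjusted p = 0.0348). Psat1 alone kept its call with each array left out. Phgdh kept it without control replicate 1 or 1000 mg/kg replicate 1, Aldh1l2 without 1000 mg/kg replicate 2 only, and Slc3a2 in no case (otherwise adjusted p 0.0547 to 0.159).

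Stress genes of other kinds had 0 to 2 calls per list. Of 11 heat shock genes 2 rose, both small chaperones, and the list median was 0.08. Hspb1 rose from 610.3, 603 and 413 to 1217, 1219 and 1884 (1.37 ± 0.33, adjusted p = 0.0398) and Hspb8 by 0.61 ± 0.14 (adjusted p = 0.034). Both calls were lost in all 6 cases of a left-out array (adjusted p 0.0555 to 0.165). Of 21 endoplasmic reticulum chaperones (3 falls without 1500 mg/kg replicate 3) Hyou1 fell by 0.71 ± 0.17 (adjusted p = 0.0358; lost in all 6 cases, adjusted p 0.08 to 0.146) and 0 rose, with a median of -0.01 (0.11 with median scaling). The p53 list had no call among 14 by limma, with 2 higher and 2 lower at an unadjusted p under 0.05. The growth arrest gene Cdkn1a read 371, 412 and 807 in the controls and 483, 278 and 312 at 1000 mg/kg and Mdm2 565, 552 and 517 in the controls and 707, 697 and 667 at 1000 mg/kg. Of 20 immediate early and MAPK feedback genes the phosphatase Dusp6 fell, from 2889, 1861 and 4386 to 810.4, 1374 and 1489.6 (-1.26 ± 0.31, adjusted p = 0.0463; kept only without control replicate 2, otherwise adjusted p 0.0736 to 0.18), and the list median was -0.35 (3 falls without 1500 mg/kg replicate 3). Jun read 1450.1, 663 and 1439 in the controls and 644, 505 and 377 at 1000 mg/kg and Dusp1 1699.8, 1722 and 1742 in the controls and 1034, 936 and 936 at 1000 mg/kg, without overlap and not called (-1.14 ± 0.41, adjusted p = 0.186 and -0.82 ± 0.28, adjusted p = 0.164; adjusted p = 0.0172 and 0.0303 without 1500 mg/kg replicate 3).

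Of 40 tested cell cycle genes 3 fell and 0 rose, with a median of -0.75 against -0.05 for all genes. With 1 of the 6 arrays left out 0 or 1 fell by limma, and without 1500 mg/kg replicate 3 5 fell and 1 rose. In 23 of the 40 the dosed signals lay wholly below the controls (15.5% of all probe sets), and 20 had an unadjusted limma p under 0.05 in that direction. Cdc25b, a phosphatase that triggers mitosis, read 144, 186 and 103 in the controls and 9.17, 45.9 and 14.1 at 1000 mg/kg (-2.12 ± 0.40, adjusted p = 0.0129). Cdkn3 gave 260.1, 298 and 369 in the controls and 14.7, 83.6 and 76.6 at 1000 mg/kg (-2.29 ± 0.54, adjusted p = 0.0369) and Cdca3, a mitotic entry factor, 254, 349.9 and 523 in the controls and 122, 128 and 159 at 1000 mg/kg (-1.31 ± 0.29, adjusted p = 0.0301). No dosed animal reached the control range in any of the 3. Cdc25b lost its call without 1000 mg/kg replicate 1 or 3 (adjusted p 0.0537 to 0.0572) and was under the filter without control replicate 1 or 2. Cdca3 kept it only without control replicate 1 and Cdkn3 in no case (adjusted p 0.052 to 0.137). The proliferation marker Mki67 gave 151, 167 and 207 in the controls and 49.0, 83.2 and 124 at 1000 mg/kg (-0.97 ± 0.36, adjusted p = 0.192). Cyclin D1, Ccnd1, gave 1327, 835 and 1591 in the controls and 332, 508 and 795 at 1000 mg/kg (-1.21 ± 0.81, adjusted p = 0.514). Both were without overlap and not called. Thymidine kinase Tk1 stood on the other side, with 393, 521 and 442 in the controls and 764, 684 and 733 at 1000 mg/kg (0.68 ± 0.18, adjusted p = 0.0681; adjusted p = 0.01 without 1500 mg/kg replicate 3).

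Some genes differ between male and female rat liver under the control of growth hormone. Of 24 male-predominant or growth hormone signalling genes 1 rose (Akr1c14) and 4 fell (median -0.45); without 1500 mg/kg replicate 3 2 rose and 6 fell. Stac3 read 12954, 14503 and 13784 in the controls and 183, 176 and 627 at 1000 mg/kg, a 41.9-fold lower mean (-5.56 ± 0.43, adjusted p = 1.27e-05), the third dosed animal being the highest of its group. The lipocalin Mup5 fell from 9244, 8388 and 9138 to 5512, 5312 and 5389 (-0.72 ± 0.13, adjusted p = 0.00882). Its relative Obp3 fell from 27322, 26332 and 28389.9 to 18031, 7366 and 8544 (-1.39 ± 0.30, adjusted p = 0.0265). The IGF carrier Igfbp3 fell from 3276, 2032 and 2468 to 780.0, 1035 and 937 (-1.46 ± 0.35, adjusted p = 0.0422). Another Igfbp3 probe set fell by 1.30 (adjusted p = 0.040). Stac3 and Mup5 kept their calls, Obp3 only without 1000 mg/kg replicate 1, and Igfbp3 in no case (otherwise adjusted p 0.0787 to 0.161). The growth hormone targets Igfals, Socs2 and Cish were not called. Igfals read 7041, 7074 and 7783 in the controls and 3894, 3219.6 and 4235 at 1000 mg/kg (-0.95 ± 0.47, adjusted p = 0.355; adjusted p = 0.00021 without 1500 mg/kg replicate 3). Socs2 read 653, 571 and 909.6 in the controls and 333, 162 and 106 at 1000 mg/kg (-1.86 ± 0.61, adjusted p = 0.139). Cish read 1070.2, 141 and 1073 in the controls and 223, 174 and 123 at 1000 mg/kg (-1.63 ± 0.87, adjusted p = 0.398), the only one of them with overlap.

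Dosed replicate 3 stood apart in a group of these genes. The female-predominant sulfotransferase Sult2a2 read 42.9, 35.9 and 39.4 in the controls and 193, 80.8 and 4169 at 1000 mg/kg, that animal far above the other dosed ones. Akr1b7, an aldose reductase, gave 71, 38.6 and 129.7 in the controls and 1108, 626 and 5836 at 1000 mg/kg (adjusted p = 0.0102 without 1500 mg/kg replicate 3). A1bg gave 95.0, 132 and 113 in the controls and 159.9, 179.8 and 519.8 at 1000 mg/kg. The prolactin receptor Prlr gave 710.2, 306 and 1327 in the controls and 1683, 1347 and 3221 at 1000 mg/kg. Dosed replicate 3 was the highest each time. The male-specific steroid hydroxylase Cyp2c11 showed the reverse, 35836, 39902 and 43585 in the controls and 30311, 28735 and 11742 at 1000 mg/kg. So did the carbonic anhydrase Car3, with 40227, 43061 and 46669 in the controls and 35018, 31066 and 16537 at 1000 mg/kg. None of the 6 was called (adjusted p = 0.222, 0.102, 0.304, 0.332, 0.242 and 0.684), and of 10 female-predominant genes Sult2a6 alone rose (median 0.73). These 6 genes were set together after their values were seen.

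Among 17 clock genes 1 rose and 1 fell (median -0.05, or 0.06 with median scaling; 4 fell without 1500 mg/kg replicate 3). Nr1d2 (REV-ERB beta), a repressor of the clock, rose from 275, 253 and 326 to 532, 1131 and 817 (1.43 ± 0.28, adjusted p = 0.0141). Bhlhe40 fell from 347, 504 and 253 to 167, 132 and 117 (-1.27 ± 0.30, adjusted p = 0.0411). Both overlapped in no animal. Nr1d2 kept its call without control replicate 3 or 1000 mg/kg replicate 1 and Bhlhe40 only without control replicate 3 (otherwise adjusted p 0.0564 to 0.172). Another Nr1d2 probe set rose by 1.65 (adjusted p = 0.0111). Cry1 read 964, 930.1 and 747 in the controls and 602, 365 and 419.9 at 1000 mg/kg and was not called (-0.93 ± 0.23, adjusted p = 0.0515; adjusted p = 0.00823 without 1500 mg/kg replicate 3). No hour of sampling is given, and its part in these differences was not tested.

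The secretory output of the hepatocyte showed few calls. None of 26 plasma carriers and acute phase genes was called by limma (median -0.05, or 0.07 with median scaling), 5 having an unadjusted p under 0.05, all lower, and 4 called lower without 1500 mg/kg replicate 3. The protease inhibitor A2m read 357, 854 and 328 in the controls and 141, 149 and 152 at 1000 mg/kg (-1.56 ± 0.41, adjusted p = 0.0595; adjusted p = 0.0226 without 1500 mg/kg replicate 3). The thyroxine carrier Serpina7 read 598, 604 and 529.7 in the controls and 492, 299 and 102 at 1000 mg/kg (-1.15 ± 0.45, adjusted p = 0.221). Both were without overlap. Of 35 complement and coagulation genes 1 rose and 2 fell (median -0.09, or 0.03 with median scaling; 6 fell without 1500 mg/kg replicate 3). The anticoagulant Pros1 went from 7038, 7103 and 7289.6 to 10667, 9811 and 10508 (0.53 ± 0.10, adjusted p = 0.0124). The lectin pathway protease Masp1 went from 1881, 2089.7 and 2369 to 1191, 957 and 1222 (-0.90 ± 0.18, adjusted p = 0.0154). C8g, a subunit of complement C8, differed by -0.46 ± 0.11 (adjusted p = 0.0412). Another Masp1 probe set had the opposite sign (0.59, not called). Pros1 kept its call without control replicate 3 or 1000 mg/kg replicate 2, Masp1 without control replicate 1 or 1000 mg/kg replicate 1 or 3, and C8g in no case (otherwise adjusted p 0.0517 to 0.17). Complement C6 gave 7200.4, 7031 and 7224 in the controls and 2987, 1898 and 2443 at 1000 mg/kg, without overlap and not called (-1.57 ± 0.45, adjusted p = 0.0859; adjusted p = 0.000109 without 1500 mg/kg replicate 3).

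The respiratory chain and the ribosome had no call in the fit of all 12 arrays, while without 1500 mg/kg replicate 3 5 and 4 of their genes were called lower. Of 58 respiratory chain genes none was called by limma and 11 had an unadjusted p under 0.05, all lower, with a median of -0.12 (-0.01 with median scaling). Of 39 cytosolic ribosomal protein genes none was called and 11 were lower at an unadjusted p under 0.05, with a median of -0.18 (-0.06 with median scaling). In both lists no member lay wholly above the controls, while 25 and 19 lay wholly below (15.5% of all probe sets). Examples were Cyc1 of complex III, with 9063, 10060.0 and 9644 in the controls and 7368, 7263 and 6654 at 1000 mg/kg (adjusted p = 0.0186 without 1500 mg/kg replicate 3), and Rps3, with 15623, 18707 and 15772 in the controls and 13200.1, 13322 and 10670.2 at 1000 mg/kg (adjusted p = 0.0322 without 1500 mg/kg replicate 3).

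Several of the largest changes belonged to no list, and Lox, of the stellate cell and fibroblast list, is described with them. Nol3, an inhibitor of apoptosis, read 74.5, 38.5 and 66.0 in the controls and 978, 689.7 and 1204 at 1000 mg/kg (3.68 ± 0.26, adjusted p = 4.76e-06). The lipid droplet protein Cidea gave 754, 523 and 361 in the controls and 4148, 2701 and 4901 at 1000 mg/kg (2.82 ± 0.30, adjusted p = 0.000255). The adhesion receptor Adgrg2 gave 6.68, 9.48 and 56.8 in the controls and 261, 421 and 192 at 1000 mg/kg (3.08 ± 0.51, adjusted p = 0.00582). The secreted Sbspon gave 69.5, 51.3 and 126 in the controls and 601, 526 and 809.8 at 1000 mg/kg (2.80 ± 0.34, adjusted p = 0.000614). All 4 kept their calls with each array left out. Among the falls, Lox read 2038, 665 and 5914 in the controls and 88.4, 98.1 and 100.2 at 1000 mg/kg (-4.18 ± 0.59, adjusted p = 0.00196), and another of its probe sets fell by 3.31. Its controls spread widely while the dosed animals did not, and the difference moved to -4.97 with control replicate 2 left out and to -3.41 with control replicate 3 left out. The adenosine receptor Adora2b gave 577, 444 and 678 in the controls and 50.1, 105 and 109 at 1000 mg/kg (-2.52 ± 0.34, adjusted p = 0.00136) and kept its call.

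The glutamate transporter Slc1a3 read 213, 366 and 206 in the controls and 107, 37.1 and 2.31 at 1000 mg/kg (-2.45 ± 0.57, adjusted p = 0.0359). Its difference was -3.11 without 1000 mg/kg replicate 1 and -1.73 without replicate 3 of that dose. Lrtm2 went from 242, 326 and 157 to 23.2, 72.3 and 16.2 (-2.37 ± 0.42, adjusted p = 0.00866). The membrane protein Popdc2 went from 490.0, 386 and 938 to 53.6, 122 and 157 (-2.29 ± 0.48, adjusted p = 0.0226) and the calcium-binding Cib2 from 261, 281 and 463 to 53.4, 65.8 and 43.9 (-2.29 ± 0.44, adjusted p = 0.0146). All 4 fell, with no overlap between the groups. Slc1a3 kept its call only without 1000 mg/kg replicate 1, Lrtm2 lost it without control replicate 2, Popdc2 kept it without control replicate 2 or 1000 mg/kg replicate 3, and Cib2 without control replicate 1 or 2 or 1000 mg/kg replicate 2 (otherwise adjusted p 0.0544 to 0.145). The secreted phosphoprotein Spp2 fell by 0.49 ± 0.12 (adjusted p = 0.0439; lost in all 6 cases, adjusted p 0.0581 to 0.167). In addition, 41 called rises and 58 falls were of probe sets without a single gene symbol. Beside 1371076_at, described with the CAR targets, the largest of these rises was that of 1368718_at, which has no symbol and read 632, 350.5 and 2598 in the controls and 32529, 25411 and 30226 at 1000 mg/kg (5.10 ± 0.51).

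How 1000 mg/kg differed from its neighbouring doses was tested in the same fit; these contrasts share the 1000 mg/kg arrays with the comparison above. Between 1000 and 500 mg/kg limma called 2 of 18625 probe sets, both lower at the higher dose (0.0107%). At an unadjusted p under 0.05, 529 were higher and 466 lower, together 995. That is near the share of 0.05 that would pass if nothing differed. Stac3 had a mean of 3917 at 500 and 328 at 1000 mg/kg (-3.73 ± 0.43, adjusted p = 0.0114). The unnamed 1384357_at read 92.3, 49.0 and 38.7 at 1000 mg/kg against a mean of 307 at 500, 261 at 0 and 173 at 1500 mg/kg (1000 minus 500 was -2.15 ± 0.25, adjusted p = 0.0114). Each call was lost in 5 of 6 cases with an array of these doses left out (adjusted p 0.0513 to 0.136), and kept without 1000 mg/kg replicate 3 for Stac3 and without 1000 mg/kg replicate 1 for 1384357_at. The small number of calls does not show that the doses acted alike.

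Between 1500 and 1000 mg/kg 224 probe sets were called, 114 higher and 110 lower at 1500 mg/kg (1.2%; 0.612% and 0.591%). The count was 63, 13 and 83 without 1000 mg/kg replicates 1, 2 and 3, and 248, 924 and 310 without 1500 mg/kg replicates 1, 2 and 3. Of the 10 genes named by the size of that difference, 8 were not called at 1000 mg/kg against 0. Acot1 had means of 24.9, 35.2, 58.4 and 4825 at 0, 500, 1000 and 1500 mg/kg (1500 minus 1000 was 4.57 ± 0.93, adjusted p = 0.0352). In the same order Rab3d, a GTPase of secretory vesicles, had 173, 181, 189 and 1339 (2.61 ± 0.37, adjusted p = 0.00937). Duoxa1, a partner of dual oxidase, had 185, 98.8, 56.5 and 665 (3.61 ± 0.78, adjusted p = 0.0456). C1h11orf24 differed by 2.52 ± 0.53, adjusted p = 0.0409, and Gstm3, already higher at 1000 mg/kg, by a further 2.52 ± 0.43, adjusted p = 0.018.

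Other genes were lower at 1500 than at 1000 mg/kg. Car3 had means of 43319, 44635, 27540.2 and 1745 (-4.65 ± 0.70, adjusted p = 0.00989). The iron hormone hepcidin, Hamp, had 12729.8, 10766, 23708 and 3656 (-2.87 ± 0.51, adjusted p = 0.0234). Id4, an inhibitor of helix-loop-helix factors, had 6052, 4885, 5725 and 1299.9 (-2.19 ± 0.48, adjusted p = 0.0474). The arrestin-domain gene Arrdc3 differed by -2.06 ± 0.30, adjusted p = 0.00937. Nrep, which had fallen at 1000 mg/kg from 11197, 13761 and 16076 to 4324, 4781 and 3925 (-1.64 ± 0.31, adjusted p = 0.014; kept without control replicate 1 or 1000 mg/kg replicate 2, otherwise adjusted p 0.057 to 0.068), was lower still at 1500 mg/kg, with a mean of 460.4 (-3.31 ± 0.31, adjusted p = 0.00106). Of these 10, Nrep and Rab3d kept the call between the 2 upper doses with any 1 of their 6 arrays left out. Arrdc3 and Car3 lost it in 1 case, Gstm3 in 2, Hamp in 3, Acot1, C1h11orf24 and Duoxa1 in 4 and Id4 in 5 (adjusted p 0.0517 to 0.175). Without 1000 mg/kg replicate 2 all 8 lost it. Over these left-out arrays the difference ran from 3.14 to 5.92 for Acot1, from 3.09 to 4.54 for Duoxa1 and from -5.55 to -3.52 for Car3.

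**Figure D4:**
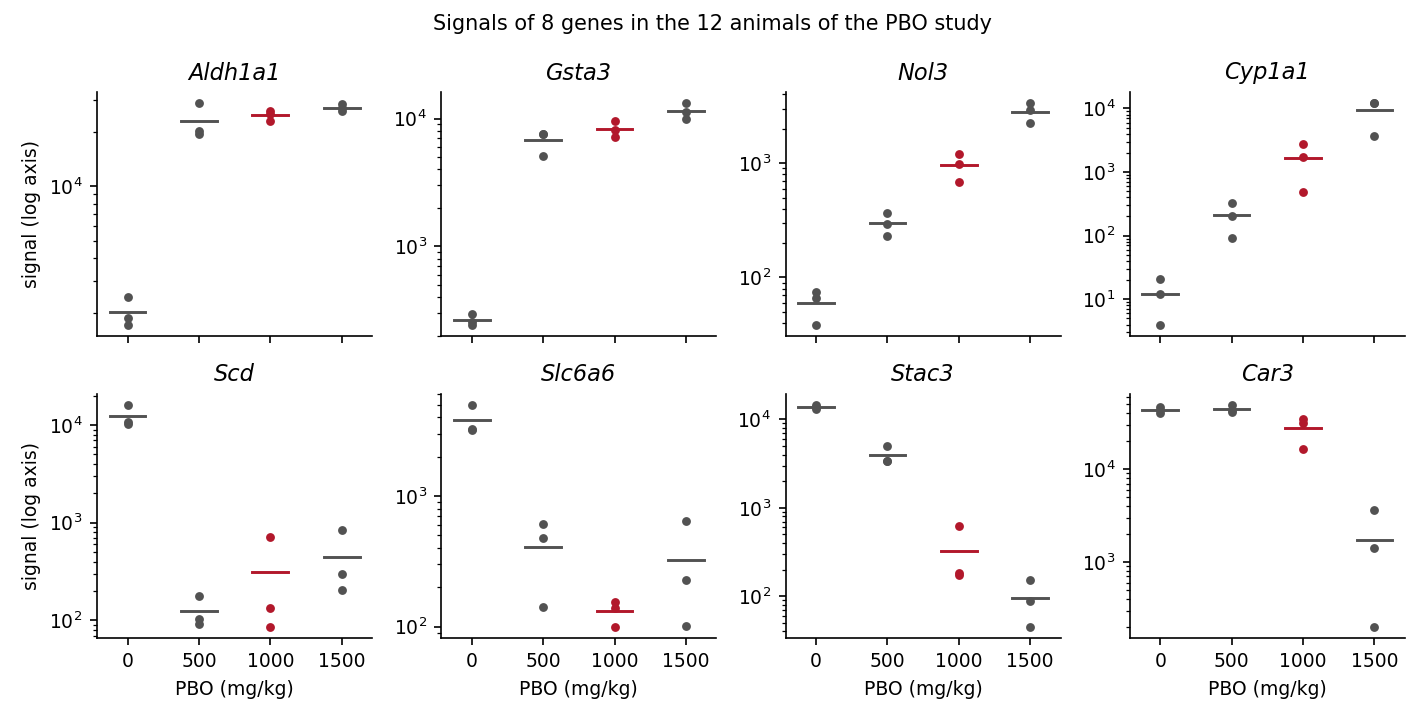
Signals (vertical axes, log scale) of 8 genes in the 12 animals of the PBO study by dose in mg/kg (horizontal axis); points are animals, bars are group means of 3, and the 1000 mg/kg group is in red. The means of Cyp1a1 and Nol3 stand higher at each dose in turn, although neither gene was called between 500 and 1000 mg/kg. The means of Aldh1a1 and Gsta3 at 500 mg/kg are already near those at 1000 mg/kg, and Car3 has its lowest signals at 1500 mg/kg.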

How the data were processed

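The authors computed 1 linear intensity per probe set and array with MAS5, as the submitters' processing notes name it, without a version. The deposited values carry a common scale, and no further normalization was applied. Groups, doses and replicate numbers came from the labels, which call the replicates biological. Of 31099 probe sets 57 array controls were left out; 20826 had 1 gene symbol in the platform annotation, 436 several and 9780 none, and 20758 symbols were checked through Entrez identifiers. Values were transformed as log2(signal + 16), and probe sets whose mean over the 12 PBO arrays exceeded its 40th percentile were kept. limma 3.58.1 (R 4.3.3; lmFit, eBayes with an intensity trend) fitted 1 coefficient per dose group, with Benjamini-Hochberg adjustment over 18625 probe sets. A gene was represented by its tested probe set with the highest mean.

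The members and the 48 gene lists (36 of pathways, 12 of cell type markers, 975 genes) were chosen with earlier results of these data known. Genes were named by a rule: the 15 largest called rises and falls without overlap, up to 4 members of each list by smallest adjusted p, 20 fixed genes (19 tested), the 5 largest rises and falls called between neighbouring doses, and the 5 called genes with the highest mean signal in each direction; 198 genes met it. The remaining called members of the lists described, and Cd36, Cish, Ephx2, Hmox1, Igfals, Prlr, Psma3, Psmc6, Psme2, Socs2, Srxn1, Txnrd1 and Ugt2b, were chosen after their values were seen. Promoters came from RefSeq (GRCr8).

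On simulated data for this comparison (18625 probe sets, 50 changed at each size), 10% of the changes of 0.5 log2 units, 54% of those of 1, 96% of those of 2 and 90% of those of 3 were called. There were 8 false calls, and 0 calls where no probe set was changed. Same-numbered animals of different groups did not deviate together (correlations from -0.07 to 0.03), so the numbers pair nothing. Alternatives were pseudocounts of 1 and 64, a filter at the 60th percentile or none, quantile normalization, median scaling, no trend, the replicate number as a block, array weights, only the arrays compared, and leaving out each compared array or 1500 mg/kg replicate 3. Arrays give no count-based depth, and 3 arrays per group limit the precision. Figures used Python 3.11.15 and matplotlib 3.10.9.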

Additional observations from a re-analysis of the deposited data

How the results depend on the processing

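The 581 calls between 1000 and 0 mg/kg stayed within 1.5 times that number with a pseudocount of 1 (558) or 64 (617), no filter (511), the 60th percentile (702) and quantile normalization (624). Median scaling gave 553 higher and 134 lower, 80.5% higher against 60.4%. Without the intensity trend 300 were called (183 higher and 117 lower), with array weights 1443 (781 and 662), and with only the 6 arrays compared 1370 (720 and 650). With 1 of the 6 compared arrays or 1500 mg/kg replicate 3 left out, the counts ran from 255 to 1448 in all, from 160 to 795 higher and from 81 to 653 lower, and the highest of each came without 1500 mg/kg replicate 3. The replicate numbers give no pairing, and with the number as a block 475 probe sets were called (296 higher and 179 lower), 449 of them among the 581. Of the 126 called genes named above, 58 kept the call without any 1 of the 6 arrays and 68 lost it with some array, while 23 uncalled ones passed without 1500 mg/kg replicate 3. Without the intensity trend 61 of the 126 lost the call.

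Between 1000 and 500 mg/kg the 2 calls became 4 with the replicate block and 5 with array weights. They became 0 to 10 with an array of these doses or 1500 mg/kg replicate 3 left out. The limma fits with 0 calls had 806 to 938 of 18625 probe sets at an unadjusted p under 0.05. That is near the share of 0.05 that would pass if nothing differed. Between 1500 and 1000 mg/kg the 224 calls became 342 with the 60th percentile, 54 without trend, 418 with array weights and 13 to 924 with an array of these doses left out. limma on only those 6 arrays called 0, with 2323 at an unadjusted p under 0.05. Among named genes not called, the difference between 1000 and 0 mg/kg changed sign with median scaling for Gstp1 (0.070), Id4 (0.094), Psma3 (0.076) and Alb (0.11), with quantile normalization for Psmc6 (-0.020) and Alb (0.074), and with array weights for Alb (0.024). With 1 of the 6 arrays or 1500 mg/kg replicate 3 left out it ran from -0.16 to 0.12 for Gstp1, -0.23 to 0.39 for Id4, -0.094 to 0.040 for Psma3, -0.13 to 0.10 for Psmc6, -0.17 to 0.39 for Rab3d and -0.15 to 0.17 for Alb. The cause of these changes was not tested. The 3 arrays per group limit the precision, and low signals near the pseudocount of 16 understate fold changes on the log2 scale.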
